A study of Saccharomyces cerevisiae with 70 samples.

Results

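This report compares budding yeast under hydrogen peroxide with budding yeast under menadione, in the window from 28 to 49 min after release from a G1 arrest. It uses 16 of the 70 arrays of the study, set by course and time point, though with earlier results of these data known. They are the 4 arrays of the second peroxide course at 28, 35, 42 and 49 min, the 4 of the same course at 0, 7, 14 and 21 min, the 4 of the second menadione course at 28, 35, 42 and 49 min, and its 4 at 0, 7, 14 and 21 min. For every gene, the change of the later window against the first window was taken in the peroxide course, the same change was taken in the menadione course, and the second was subtracted from the first. The result, called the agent difference here, is positive where the gene changed more upward under peroxide.

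All 16 arrays carried total RNA of strain DBY8724. Each array set a synchronised culture, labelled with Cy5, against an asynchronous culture of the strain, labelled with Cy3. Labels for the second courses give neither the dose of an agent nor the minute at which it was added, and no untreated synchronised course of that set was analysed here. Each course is 1 culture followed in time, so the 4 arrays of a window are time points and not separate cultures. All p-values below therefore measure the spread between time points within windows, and an agent cannot be told apart from the culture that received it. The values are log ratios taken to be on the log2 scale, with each array's median set to 0. The unit and the direction of the ratio are not stated in the sources used here, and the direction was read from mating genes, which stood above 0 in both courses just after release.

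Hydrogen peroxide is reduced in yeast by peroxiredoxins, catalases and peroxidases, which draw electrons from thioredoxin, glutathione and, behind both, NADPH. Menadione is a quinone that cycles between its oxidised and reduced forms, passes electrons to oxygen to give superoxide, and also binds glutathione. Both agents are known to activate the transcription factor Yap1, which turns on antioxidant, reductase and drug exporter genes, while Msn2 and Msn4 drive the general stress genes and ribosome genes are turned down under many stresses.

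The deposited table of the second courses held 14976 spots, of which 6570 were annotated to 1 gene. From these, 5496 genes had enough values for a test. Between 2.23% and 26.9% of spots had no value on the 16 arrays, and the peroxide arrays at 14 and 42 min lacked over 20%. Both courses carried marks of a culture released from a pheromone arrest. The median of 6 pheromone arrest markers was 2.36 in the peroxide course and 2.11 in the menadione course at 0 min. At 7 min the 6 S phase markers, all histone genes, had medians of -2.10 in the peroxide and -2.54 in the menadione course. Over these arrays their median was highest at 21 min in the peroxide course (0.63) and at 28 min in the menadione course (0.40). In the peroxide course the array at 28 min did not resemble the rest of its window. Across genes its ratios correlated at r = 0.53 with the 21 min array and at r = 0.24 with the 35 min array. These are 2 values from arrays that share a course and a reference. The 21 and 28 min arrays were scanned on the same day and the 35, 42 and 49 min arrays on another. Time and scan day cannot be told apart for this contrast.

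In the peroxide course, genes of every defence list rose between the first window and 28 to 49 min, among them thioredoxin reductase TRR1, the peroxiredoxin TSA2 and the exporter FLR1, by 3.40 to 4.13 on the log2 scale. Under menadione no gene passed the test, although most genes that rose under peroxide had a positive mean change, and no gene passed the test for a difference between the agents. In the peroxide course 216 of 5496 genes (3.93%) changed between windows, at an adjusted p under 0.05 in limma's moderated test with Benjamini-Hochberg adjustment. Of these, 151 (2.75%) rose and 65 (1.18%) fell, and an unadjusted p under 0.05 was found for 1076 (19.6%), 11% upward and 8.61% downward. In the menadione course 0 genes passed the same test (0%), the smallest adjusted p was 0.0959, and 441 genes (8.02%) had an unadjusted p under 0.05, 4.4% upward and 3.62% downward. The agent difference also reached the threshold for 0 genes (0%), with a smallest adjusted p of 0.0883, while 588 genes (10.7%) had an unadjusted p under 0.05, 329 of them (5.99%) with a positive and 259 (4.71%) with a negative difference. The median standard error of an agent difference was 0.66 and the median half-width of its 95% interval was 1.34, both on the log2 scale. Without centring, the median of all genes shifted to -0.10 for the peroxide change and to -0.11 for the agent difference. The uncentred peroxide calls were 101 upward and 71 downward, and the uncentred agent differences with an unadjusted p under 0.05 were 265 positive and 320 negative, so that every direction here is relative to the median gene. A gene below the threshold was thus not shown to respond alike to both agents. The intervals given below are not adjusted for the number of genes.

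The changes under both agents are plotted against each other below. Of the 151 genes that rose under peroxide, 110 had a positive change under menadione, and of the 65 that fell, 50 had a negative one. Over all genes tested, 50.7% had a positive change under menadione. No array is shared between the courses. Both cultures were leaving the G1 arrest over the same minutes, and no untreated course was analysed. For these shared directions, release and an effect common to the agents cannot be told apart.

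**Figure D1:**
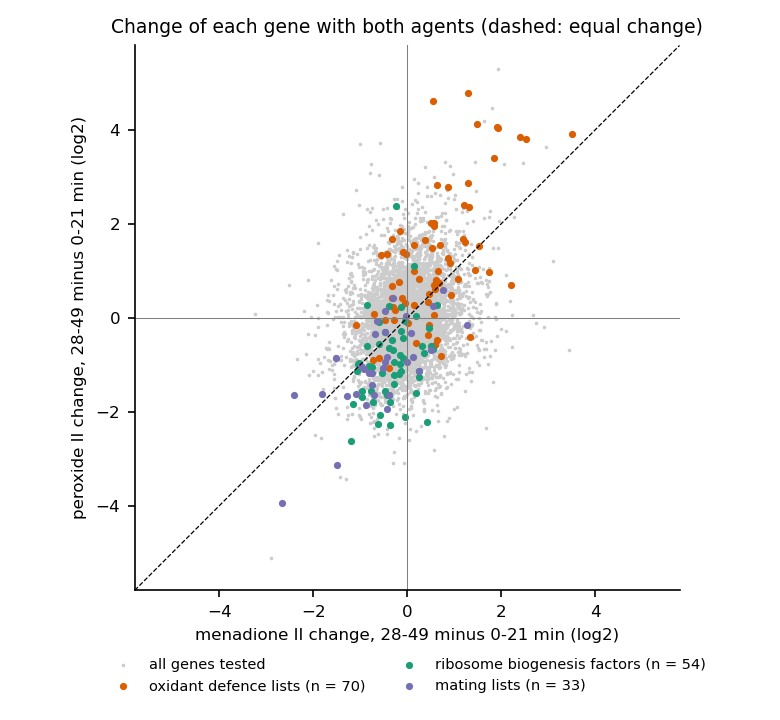
Change of each of 5496 genes between 28 to 49 min and 0 to 21 min, under peroxide (y axis, log2) against menadione (x axis, log2). Each point is a gene, the dashed line marks equal change, and colours mark 70 oxidant defence genes, 54 ribosome biogenesis factors and 33 mating genes. The defence genes with the largest changes lie in the upper right, most of them above the dashed line, and most ribosome biogenesis factors lie below 0 on both axes.

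Among 70 measured genes of oxidant defence (thioredoxin and glutathione systems, peroxiredoxins, catalases, superoxide dismutases, quinone and aldehyde reductases, drug exporters), 18 (25.7%) rose under peroxide and 0 fell, against 2.75% and 1.18% of all genes tested. The agent difference was positive for 51 of the 70, with a median of 0.50, against a median of 0.00 over all genes tested and 50.1% positive. An unadjusted p under 0.05 was found for 12 of them (17.1%) with a positive difference and for 1 (1.43%) with a negative one, against 5.99% and 4.71% of all genes. The list medians by array set both courses apart in time. The 6 genes for peroxiredoxins and sulfiredoxin had median ratios of 1.11, 2.40, 2.54 and 2.82 at 28, 35, 42 and 49 min of peroxide, and of -0.31, 1.07, 2.09 and 2.71 at the same times of menadione. At 49 min the medians of this list were 0.11 apart, and at 28 and 35 min they were 1.42 and 1.33 apart.

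**Figure D2:**
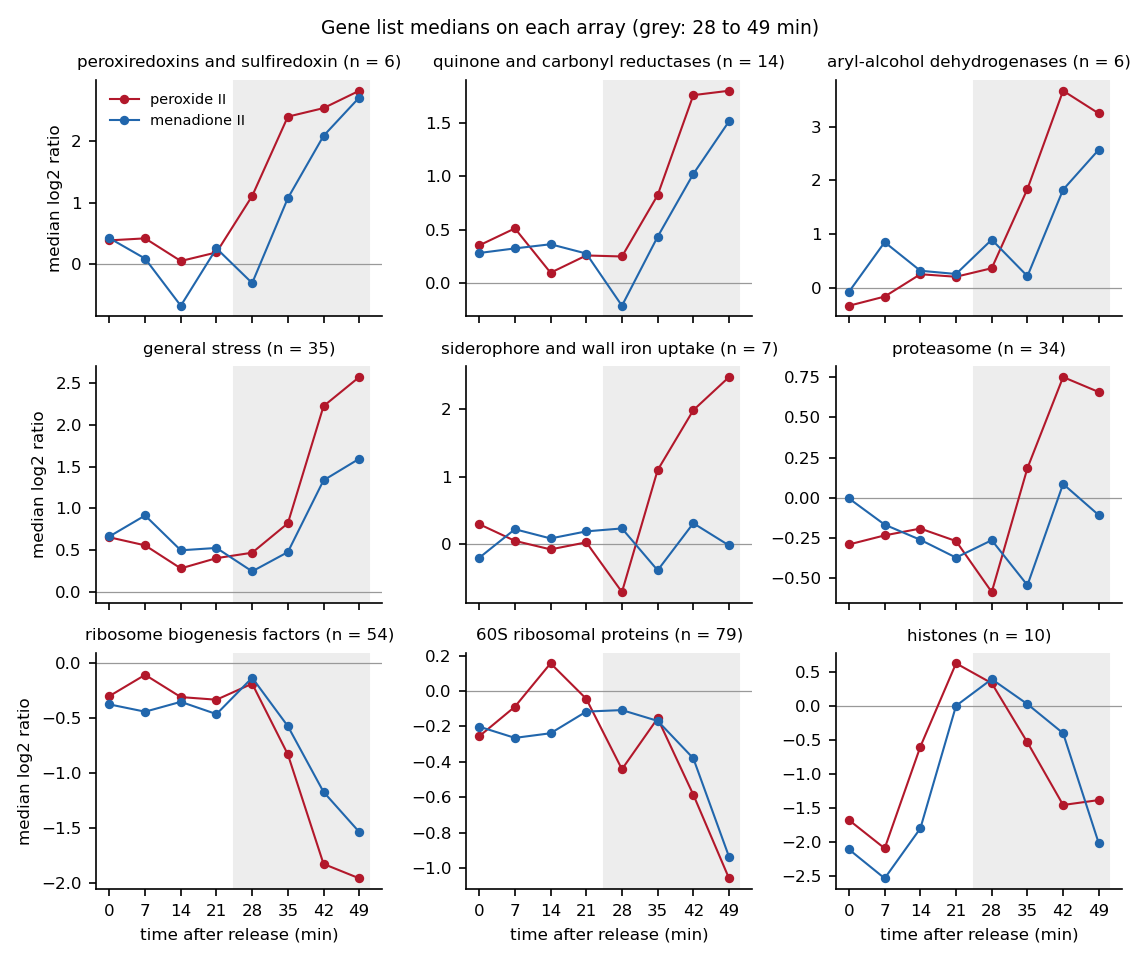
Median log2 ratio over the genes of 9 lists on each array (y axis) against time after release in min (x axis), with the peroxide course in red and the menadione course in blue; grey marks the window from 28 to 49 min. At 35 and 42 min the peroxide medians of the 3 defence lists lie above the menadione medians, the siderophore median reaches 2.48 at 49 min of peroxide and stays below 0.5 under menadione, and ribosome biogenesis factors decline in both.

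Thioredoxin reductase TRR1, which recharges thioredoxin with electrons from NADPH, had log2 ratios of 1.78, 2.60, 3.84 and 4.06 at 28 to 49 min of peroxide and of -0.66, -0.49, 0.15 and -0.33 at 0 to 21 min. The menadione ratios were -0.10, 0.88, 2.48 and 3.14 in the later window and -0.35, 0.34, 0.26 and -1.25 in the first window. The peroxide windows did not overlap, and TRR1 rose by 3.40 (adjusted p = 0.00131). The menadione windows overlapped at 28 min. The menadione change was 1.85 (adjusted p = 0.33) and the agent difference was 1.55, with an interval of -0.22 to 3.33. Thioredoxin TRX2 also rose under peroxide, by 2.02 (adjusted p = 0.0292), and TRX1, its paralog, changed by -0.37 (adjusted p = 0.607).

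TSA2, a peroxiredoxin that is scarce in unstressed cells, stood at 1.50, 5.18, 5.19 and 5.87 at 28 to 49 min of peroxide and at 0.23, 0.55, 0.27 and 0.20 before. Under menadione its ratios were 0.87, 0.90, 3.04 and 4.07, against 1.25, 1.23, 0.30 and 0.12 in the first window. It thus had reached its later level by 35 min of peroxide, whereas under menadione only the 42 and 49 min values exceeded the first window. TSA2 rose by 4.13 under peroxide (adjusted p = 0.00311), and its agent difference was 2.63 (interval 0.29 to 4.97, adjusted p = 0.397). The mitochondrial peroxiredoxin PRX1 had 2.31, 3.97, 4.11 and 4.96 at 28 to 49 min of peroxide, and -1.03, 1.25, 2.85 and 4.20 under menadione. It rose by 3.84 under peroxide (adjusted p = 0.000418), changed by 2.41 under menadione (adjusted p = 0.124), and the agent difference was 1.43 (interval -0.40 to 3.26). AHP1, a thiol peroxidase that prefers organic peroxides, gave nearly equal changes of 1.52 under peroxide and 1.53 under menadione. Its agent difference was -0.01, and the interval of -1.40 to 1.39 still allows a more than 2-fold difference either way.

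Cytochrome c peroxidase CCP1, a mitochondrial enzyme that reduces hydrogen peroxide, had one of the larger agent differences, 3.49 (interval 1.16 to 5.83, adjusted p = 0.241). Its ratios were 0.40, 2.99, 3.32 and 2.14 at 28 to 49 min of peroxide, and only the 7 and 21 min arrays of the first window had a value, -1.03 and -4.12. Under menadione they were -0.05, 0.55, 2.68 and 3.61, against 0.99, -0.65, 0.31 and 0.95. The later values of both courses covered about the same range, and the first peroxide window was lower than the first menadione window by 2.98 (adjusted p = 0.1). The peroxisomal catalase CTA1 had an agent difference of 2.01 (interval 0.37 to 3.64) and the cytosolic catalase CTT1 one of 1.40 (interval -0.34 to 3.15). The superoxide dismutases differed less between agents, with 0.85 for SOD1 (interval -0.50 to 2.21) and 0.26 for SOD2 (interval -1.09 to 1.61).

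In the glutathione system, the phospholipid hydroperoxide peroxidase GPX2 rose under peroxide by 3.82 (adjusted p = 0.000418) and changed by 2.52 under menadione (adjusted p = 0.0985). Its ratios were 1.77, 3.26, 4.08 and 3.96 at 28 to 49 min of peroxide and -0.72, 1.49, 1.85 and 2.96 at the same times of menadione, and in each course the highest value of the first window lay below the last 3 of the later one. The agent difference was 1.30 (interval -0.52 to 3.11). Glutathione reductase GLR1 rose by 1.49 and the glutaredoxin GRX2 by 2.37 under peroxide (adjusted p = 0.029 and 0.00563). ECM4, an omega-class glutathione transferase, showed the widest spread: -0.50, 2.70, 5.37 and 4.92 at 28 to 49 min of peroxide, and 1.60, -2.04, -2.83 and -2.68 at 0 to 21 min. Under menadione it had no value at 28 min, then 0.70, 0.15 and 3.31, against 1.00, -0.05, 1.20 and 1.21 in the first window. ECM4 rose by 4.61 under peroxide (adjusted p = 0.003) and changed by 0.55 under menadione (adjusted p = 0.928). Its agent difference was 4.06 (interval 1.37 to 6.76, adjusted p = 0.239). Part of that value came from the first windows, which differed by -2.33, peroxide minus menadione (adjusted p = 0.207).

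Quinone and carbonyl reductases act on quinones, the class of compound to which menadione belongs, and on reactive aldehydes. The agent difference was positive for 12 of the 14 measured, with a median of 0.53. The methylglyoxal reductase GRE2 stood at 2.57, 3.71, 5.38 and 4.00 at 28 to 49 min of peroxide and at 0.10, 0.54, 0.67 and -1.90 at 0 to 21 min. Under menadione it stood at 1.21, 2.70, 3.27 and 3.35, against 0.36, 0.78, 0.42 and 1.31. Every later peroxide value exceeded the menadione value of the same minute. GRE2 rose by 4.06 under peroxide (adjusted p = 0.000191), its menadione change was 1.91 (adjusted p = 0.239), and the agent difference was 2.15 (interval 0.46 to 3.84, adjusted p = 0.333). The NADPH oxidoreductase OYE2, known as Old Yellow Enzyme, had 1.10, 3.76, 3.42 and 3.54 at 28 to 49 min of peroxide and 1.69, 0.68, 1.08 and 2.44 under menadione. It rose by 2.78 under peroxide (adjusted p = 0.00362), with an agent difference of 1.92 (interval 0.31 to 3.53). For its paralog OYE3 the agent difference was 0.49 (interval -1.25 to 2.24), and for the quinone reductase ZTA1 it was -0.50 (interval -1.54 to 0.53). The quinone reductase LOT6 had too few values to be tested.

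Of the 6 aryl-alcohol dehydrogenase genes with a value, AAD3, AAD14 and AAD15 (50%) rose under peroxide, against 2.75% of all genes tested. Their family median reached 3.67 at 42 min of peroxide and 1.83 at 42 min of menadione. These genes are near copies of each other, and on spotted arrays their probes may report each other's transcripts, as may those of ribosomal protein and histone pairs. Among 14 drug exporters the median difference was -0.30 and 6 were positive. FLR1, a multidrug transporter under Yap1, had 1.54, 5.55, 5.99 and 5.62 at 28 to 49 min of peroxide and 0.85, 0.94, 1.81 and 3.11 under menadione, with first windows between 0.38 and 0.93 for peroxide and between -0.80 and 0.25 for menadione. FLR1 rose by 4.04 (adjusted p = 0.000418) under peroxide, and the agent difference was 2.09 (interval 0.23 to 3.96, adjusted p = 0.397). ATR1, another exporter of the same class, had a negative difference of -1.53 (interval -2.57 to -0.49).

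**Figure D3:**
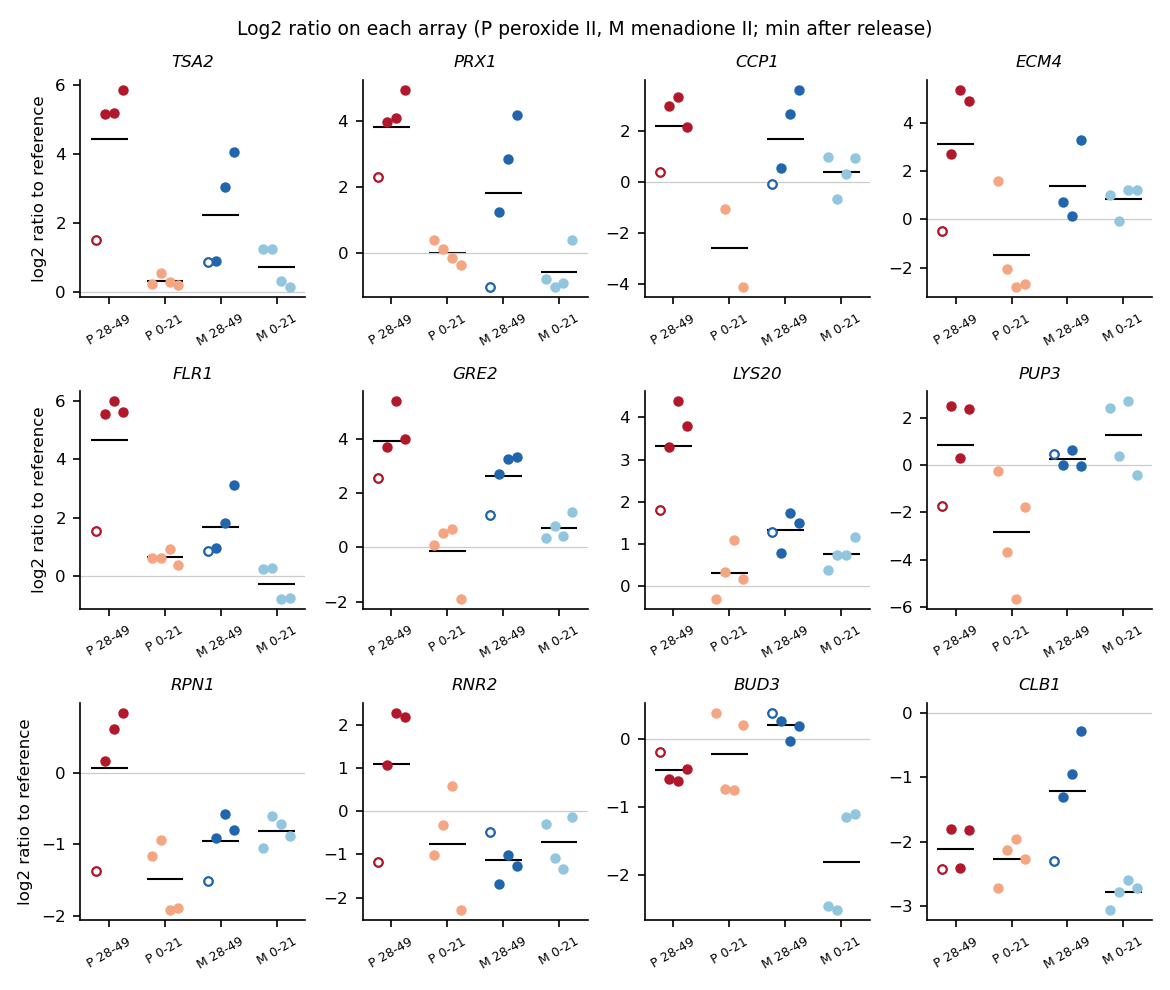
Log2 ratio (y axis) of 12 genes on each of the 16 arrays, grouped along the x axis by course (P peroxide, M menadione) and window in min after release. Points are arrays in time order, open points are the 28 min arrays, and black lines are group means. For TSA2, FLR1 and RNR2 the 28 min peroxide array lies apart from the other 3 of its window, and for CLB1 the higher values are those of the later menadione window.

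Yap1 is switched on mainly by oxidation of its cysteines, which keeps it in the nucleus. Its gene had ratios of -0.41, 1.63, 3.28 and 1.67 at 28 to 49 min of peroxide and of -0.92, -0.13 and -0.14 at 0, 7 and 14 min. Under menadione the values were -0.97, 1.31, 1.98 and 1.03, against -0.03, 1.27, 1.74 and -0.13. The windows overlapped in both courses. The agent difference of YAP1 was 1.81 (interval 0.14 to 3.48, adjusted p = 0.419), and the peroxide change of 1.93 had an adjusted p of 0.0598. Of the 11 genes for Yap family members and SKN7, 7 had a positive difference, and the list median was 0.91. An unadjusted p under 0.05 was found for 3 of the 11 (27.3%), YAP1, CIN5 and YAP5, against 5.99% of all genes in that direction. Part of this came from the first windows. CIN5 differed there by -1.46, peroxide minus menadione (adjusted p = 0.347), with peroxide values at 0 and 7 min only. YAP5 was among the genes called lower under peroxide in the first window. For SKN7, whose product acts with Yap1 at many peroxide-responsive genes, the difference was -0.90 (interval -2.46 to 0.65).

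ZWF1 encodes glucose-6-phosphate dehydrogenase, the entry enzyme of the pentose phosphate pathway and a main source of NADPH. Its ratios were 2.08, 2.65, 3.77 and 3.53 at 28 to 49 min of peroxide and 0.26, 0.87, 0.43 and 0.22 at 0 to 21 min. Under menadione they were -0.02, 0.70, 2.59 and 2.06, against 2.06, 0.60, 0.25 and -1.04. The peroxide windows were separate and the menadione windows overlapped. ZWF1 rose by 2.56 under peroxide (adjusted p = 0.00373), and its agent difference was 1.69 (interval 0.20 to 3.19). The later enzymes of the pathway differed by less, with 0.38 for GND1 (interval -0.66 to 1.42) and 0.77 for TAL1 (interval -0.38 to 1.92).

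LYS20, a homocitrate synthase at the head of lysine synthesis, had 1.81, 3.29, 4.38 and 3.79 at 28 to 49 min of peroxide and -0.30, 0.33, 1.09 and 0.16 at 0 to 21 min. Under menadione it had 1.28, 0.79, 1.73 and 1.50, against 0.39, 0.74, 0.74 and 1.16. All 4 later peroxide values lay above the highest menadione value. LYS20 rose by 3.00 under peroxide (adjusted p = 0.000418), changed by 0.57 under menadione (adjusted p = 0.816), and the agent difference was 2.43 (interval 1.03 to 3.82, adjusted p = 0.207). LYS21, its isozyme, had a difference of 1.33 (interval -0.16 to 2.81), and the median over 9 lysine genes was 0.27. CYC1, the main cytochrome c, had similar ratios in both courses only at 49 min. They were 1.47, 3.55, 3.63 and 3.69 at 28 to 49 min of peroxide, and 0.30, 1.65, 1.32 and 3.78 under menadione. CYC1 rose by 3.64 under peroxide (adjusted p = 0.00131), and its menadione change of 2.95 had an adjusted p of 0.0959. The agent difference of CYC1 was 0.69 (interval -1.23 to 2.62).

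Sulfate assimilation, which supplies the sulfur for cysteine and glutathione, had a median difference of 0.02 over 28 genes. MET3, the ATP sulfurylase that opens the pathway, had 1.92, 0.48, 0.34 and 0.62 at 28 to 49 min of peroxide and -0.53, 0.37, 1.38 and 0.90 at 0 to 21 min. Under menadione it had 1.68, 1.43, 1.02 and 1.50, against 0.09, -1.09, -0.14 and -0.78, so the menadione windows were separate and the peroxide windows overlapped. The menadione change of MET3 was 1.89 (adjusted p = 0.0959), the peroxide change 0.31 (adjusted p = 0.76), and the agent difference -1.58 (interval -2.89 to -0.26). Of its other named members, the regulator genes MET31 and MET32 had differences of -1.77 (interval -3.24 to -0.29) and -1.83 (interval -3.55 to -0.10). The enzyme genes MET14 and MET16 had 1.11 and 0.21. Much of the negative values came from the first windows. There peroxide minus menadione was 1.01 for MET3, 1.31 for MET31 and 1.78 for MET32 (adjusted p = 0.306, 0.195 and 0.142). For MET14 and MET16 it was -0.73 and 0.43. The later means of MET32 were -1.26 under peroxide and -1.21 under menadione. In glycolysis, 14 of 22 genes had a positive difference, and the isozymes of glyceraldehyde-3-phosphate dehydrogenase had opposite signs, with 2.76 for TDH1 (interval 0.78 to 4.73) and -1.41 for TDH2 (interval -2.25 to -0.57).

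Iron handling is tied to oxidants through iron-sulfur clusters, which superoxide and peroxide damage. ISU2, a scaffold on which these clusters are built, rose by 3.33 under peroxide (adjusted p = 0.000432). Its ratios were 1.69, 3.37, 3.89 and 3.39 at 28 to 49 min of peroxide and 0.63, 1.83, 2.75 and 1.27 at the same times of menadione, and the agent difference was 1.87 (interval 0.28 to 3.46). The 7 genes for siderophore and cell wall iron uptake all had a positive difference, with a median of 0.79, and 0 of the 7 had an unadjusted p under 0.05. Their median ratios were -0.71, 1.10, 1.99 and 2.48 at 28 to 49 min of peroxide and 0.23, -0.39, 0.31 and -0.02 under menadione. FIT3, a cell wall mannoprotein that helps retain siderophores, had -0.71, 2.19, 2.44 and 4.01 at 28 to 49 min of peroxide and 1.19, 0.02, 0.55 and 1.73 under menadione, with an agent difference of 1.76 (interval -0.04 to 3.56). Over the 16 genes of reductive iron uptake the median was 0.23.

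General stress genes had a positive difference in 30 of 35 cases with a median of 0.87, but only 2 of the 35 (5.71%) had an unadjusted p under 0.05, close to the 5.99% of all genes tested. Their median ratios were 0.47, 0.82, 2.22 and 2.57 at 28 to 49 min of peroxide and 0.25, 0.48, 1.34 and 1.59 under menadione, and both courses stood at 0.28 to 0.92 in the first window. DDR2, a small stress protein of this group, had -0.97, 3.69, 3.98 and 3.64 at 28 to 49 min of peroxide and -2.02, -0.11, 2.14 and 3.73 under menadione. The last pair of values was nearly equal. DDR2 rose by 4.20 under peroxide (adjusted p = 0.0211) and its agent difference of 2.55 had an interval of -0.40 to 5.50. Of 24 heat shock chaperones 18 had a positive difference, with a median of 0.78. Under peroxide 0 rose or fell at the adjusted threshold, against 2.75% and 1.18% of all genes. An unadjusted p under 0.05 was found for 8 (33.3%) upward and 0 downward under peroxide, against 11% and 8.61% of all genes. SSA4, a stress-induced Hsp70, had a difference of 1.83 (interval 0.61 to 3.05), made of changes of 0.94 under peroxide and -0.89 under menadione.

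The proteasome degrades oxidised proteins, and its subunit genes are controlled together by Rpn4. The difference was positive for 29 of 34 subunit genes, with a median of 0.45, and 4 (11.8%) had an unadjusted p under 0.05 in that direction against 5.99% of all genes. Median ratios of the subunits were -0.59, 0.18, 0.75 and 0.66 at 28 to 49 min of peroxide and -0.27, -0.55, 0.09 and -0.11 under menadione. From 35 min on, the peroxide median was 0.73, 0.67 and 0.77 above the menadione median. RPN1, a scaffold subunit of the regulatory particle, had -1.38, 0.17, 0.62 and 0.84 at 28 to 49 min of peroxide and -1.16, -0.93, -1.93 and -1.90 at 0 to 21 min. Under menadione it had -1.52, -0.91, -0.57 and -0.80, against -1.06, -0.60, -0.72 and -0.88. RPN1 rose by 1.54 under peroxide (adjusted p = 0.0107), changed by -0.14 under menadione (adjusted p = 0.952), and its agent difference was 1.68 (interval 0.66 to 2.71, adjusted p = 0.21). The factor gene RPN4 had a smaller difference of 0.71 (interval -0.29 to 1.72).

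PUP3, a core subunit of the proteasome, had the largest positive agent difference among the genes named here, 4.71 (interval 2.31 to 7.11, adjusted p = 0.2), and it came mainly from the first window. Its ratios were -1.71, 2.49, 0.30 and 2.36 at 28 to 49 min of peroxide and -0.27, -3.67, -5.66 and -1.77 at 0 to 21 min, against 0.46, 0.00, 0.65 and -0.05 and then 2.42, 0.39, 2.69 and -0.41 under menadione. The first windows differed by -4.12 (adjusted p = 0.0212), peroxide minus menadione, and the later menadione values lay inside the later peroxide range.

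Ribosome genes lay on the other side. Over 251 measured genes for cytosolic and mitochondrial ribosomal proteins and ribosome biogenesis factors, the difference was positive for 78 with a median of -0.38. The 54 ribosome biogenesis factors had a median difference of -0.68 with 11 positive. Of these 54 genes, 5 (9.26%), among them the nucleolar protein gene NSR1, fell under peroxide and 0 rose, against 1.18% and 2.75% of all genes. Their median ratios were -0.18, -0.83, -1.82 and -1.96 at 28 to 49 min of peroxide and -0.13, -0.57, -1.17 and -1.53 under menadione, so that both courses moved the same way. NOG2, a GTPase of 60S assembly, had -2.91, -2.02 and -4.35 at 28, 35 and 49 min of peroxide and -2.17, -1.56, -2.96 and -1.03 under menadione, and its agent difference was -2.05 (interval -3.80 to -0.31). For 55 genes of the small subunit the median was -0.52, with 6 (10.9%) at an unadjusted p under 0.05 in the negative direction against 4.71% of all genes, and for 79 of the large subunit it was -0.46 with 7 (8.86%). RPS30B had the largest difference of the group, -3.28 (interval -5.28 to -1.28, adjusted p = 0.21). It stood at 1.58, -3.06 and -2.57 at 28, 42 and 49 min of peroxide, without a value at 35 min, and at -0.25, 0.82, 0.62 and -0.02 under menadione. Mitochondrial ribosomal proteins, 63 genes, had a median of -0.06.

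Cell cycle genes were compared because both cultures were moving through the cycle in these minutes. G2/M cyclin gene CLB1 stood at -2.42, -1.80, -2.40 and -1.81 at 28 to 49 min of peroxide and at -2.72, -2.12, -1.95 and -2.27 at 0 to 21 min, with no separation of the windows. Under menadione it stood at -2.30, -1.31, -0.95 and -0.28, all above the first-window values of -3.06, -2.77, -2.59 and -2.71. The peroxide change of CLB1 was 0.16 (adjusted p = 0.854), the menadione change 1.57 (adjusted p = 0.0959), and the agent difference -1.41 (interval -2.43 to -0.40, adjusted p = 0.273). CLB2, the major mitotic cyclin gene, had an agent difference of the other sign, 0.75 (interval -0.50 to 2.00). It rose by 2.03 under peroxide (adjusted p = 0.00415) and changed by 1.28 under menadione (adjusted p = 0.387). The first windows of CLB2 differed by -1.41, peroxide minus menadione (adjusted p = 0.12). In the later window its mean was lower under peroxide, -1.35 against -0.69 under menadione. Over the 32 measured genes of the CLB2 cluster the median difference was -0.20, and an unadjusted p under 0.05 was found for 7 (21.9%) in the negative direction and 1 (3.12%) in the positive one, against 4.71% and 5.99% of all genes.

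BUD3, a bud site landmark of the same cluster, was among the 5 negative differences with the smallest p. It had -0.19, -0.58, -0.62 and -0.44 at 28 to 49 min of peroxide and 0.37, -0.73, -0.75 and 0.20 at 0 to 21 min, and under menadione 0.38, 0.27, -0.04 and 0.20 against -2.44, -2.51, -1.14 and -1.10. The menadione windows were separate by over 1 log2 unit and the peroxide windows overlapped. The menadione change was 2.00 (adjusted p = 0.0959) and the agent difference -2.23 (interval -3.46 to -1.01, adjusted p = 0.2). Much of that value came from the first windows, which differed by 1.57, peroxide minus menadione (adjusted p = 0.0643). The later means of BUD3 were -0.46 under peroxide and 0.20 under menadione. The G1 cyclin CLN2 fell under peroxide by 2.36 on the log2 scale (adjusted p = 0.0218). Its ratios were -0.92, -1.77, -2.93 and -2.98 at 28 to 49 min of peroxide and 0.24, -0.87, -1.47 and -2.18 at the same times of menadione, with an agent difference of -1.93 (interval -3.66 to -0.19).

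Histone genes, made in S phase, had a negative difference in 9 of 10 cases with a median of -1.19. Their medians were 0.34, -0.54, -1.46 and -1.39 at 28 to 49 min of peroxide and 0.40, 0.03, -0.40 and -2.02 under menadione. In the first window they were -1.68, -2.10, -0.60 and 0.63 for peroxide and -2.11, -2.54, -1.80 and 0.00 for menadione, so the peroxide medians were higher at 0 to 21 min and at 49 min, and lower at 28 to 42 min. HTB2, a histone H2B gene, had a difference of -2.15 (interval -4.03 to -0.26). The part of cycle timing in this result was not tested. RNR2, the small subunit of ribonucleotide reductase, had -1.17, 1.07, 2.28 and 2.19 at 28 to 49 min of peroxide and -0.49, -1.70, -1.02 and -1.27 under menadione. From 35 min on the courses did not overlap for RNR2, and its agent difference was 2.26 (interval 0.50 to 4.02, adjusted p = 0.325). RNR3, the usual marker of DNA damage signalling, differed by 0.53 (interval -1.27 to 2.32).

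Mating genes are switched on during a pheromone arrest and were followed here because the cultures had been released from G1. Over 30 pheromone response genes the median difference was -0.40, with 8 positive. In the peroxide course 4 of them (13.3%) fell, against 1.18% of all genes, and in the menadione course 0 passed the test. MFA2, which encodes the a-factor pheromone, had -1.84, -4.25, -3.00 and -3.17 at 28 to 49 min of peroxide and 1.33, 0.38, -1.02 and -0.39 at 0 to 21 min. Under menadione it had -2.22, -1.61, -2.09 and -2.39, against 0.53, 0.74, -0.85 and -2.73. MFA2 fell under peroxide by 3.14 on the log2 scale (adjusted p = 0.00451), its menadione change was -1.50 (adjusted p = 0.526), and the agent difference was -1.64 (interval -3.53 to 0.25).

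The 5 positive agent differences with the smallest p belonged to none of the gene lists. MSI1, a subunit of chromatin assembly factor CAF-1, came closest to the threshold with a difference of 2.62 (interval 1.57 to 3.67, adjusted p = 0.0883). It had 0.50, 0.89, 2.47 and 1.79 at 28 to 49 min of peroxide and -1.17, -0.72, -0.09 and -0.39 at 0 to 21 min. The menadione ratios were -0.42, -0.27, -0.62 and -0.93, against 0.13, -0.48, 0.83 and -0.26. All later peroxide values were above the first-window values of that course, and MSI1 rose by 2.00 under peroxide (adjusted p = 0.00131). NHP10, a subunit of the INO80 chromatin remodeller, had 0.56, 0.37, 0.24 and -0.14 at 28 to 49 min of peroxide and -1.26, -1.15, -0.30 and -1.30 under menadione, with a difference of 2.06 (interval 1.15 to 2.97, adjusted p = 0.155). AIF1, a mitochondrial homolog of apoptosis-inducing factor, had 1.38, 1.96, 4.22 and 3.23 at 28 to 49 min of peroxide and -0.91, -0.19, 0.32 and 0.41 under menadione, and a difference of 2.90 (interval 1.49 to 4.31, adjusted p = 0.186). Its first windows lay between -0.63 and 0.63 for peroxide and between -0.41 and 0.21 for menadione.

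SEC9, a t-SNARE of exocytosis, and AIM9, a gene named for mitochondrial inheritance, completed the 5 positive differences, at 1.99 (interval 1.06 to 2.93) and 3.81 (interval 2.08 to 5.53). Part of the AIM9 value came from the first window, where peroxide was lower than menadione by 2.81 on the log2 scale (starting difference -2.81, adjusted p = 0.024). On the negative side, the retromer subunit gene VPS5 differed by -4.03 (interval -5.93 to -2.13), and 1 array weighed heavily in it. Its ratios were 0.36, -0.02, -1.33 and -0.05 at 28 to 49 min of peroxide, against 0.98, 4.83 and 0.45 at 0, 7 and 21 min, with no value at 14 min. Without the 7 min peroxide array the VPS5 difference was -2.66. The uncharacterised reading frames YKL063C and YOR342C differed by -2.16 and -2.79, and EPT1, an ethanolaminephosphotransferase, by -2.07. YOR342C had -4.25, -1.77, -4.42 and -4.57 at 28 to 49 min of peroxide, between -1.52 and -0.17 before, and between -0.80 and 1.17 on every menadione array of the 2 windows, and it fell by 3.10 on the log2 scale under peroxide (adjusted p = 0.000769).

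**Figure D4:**
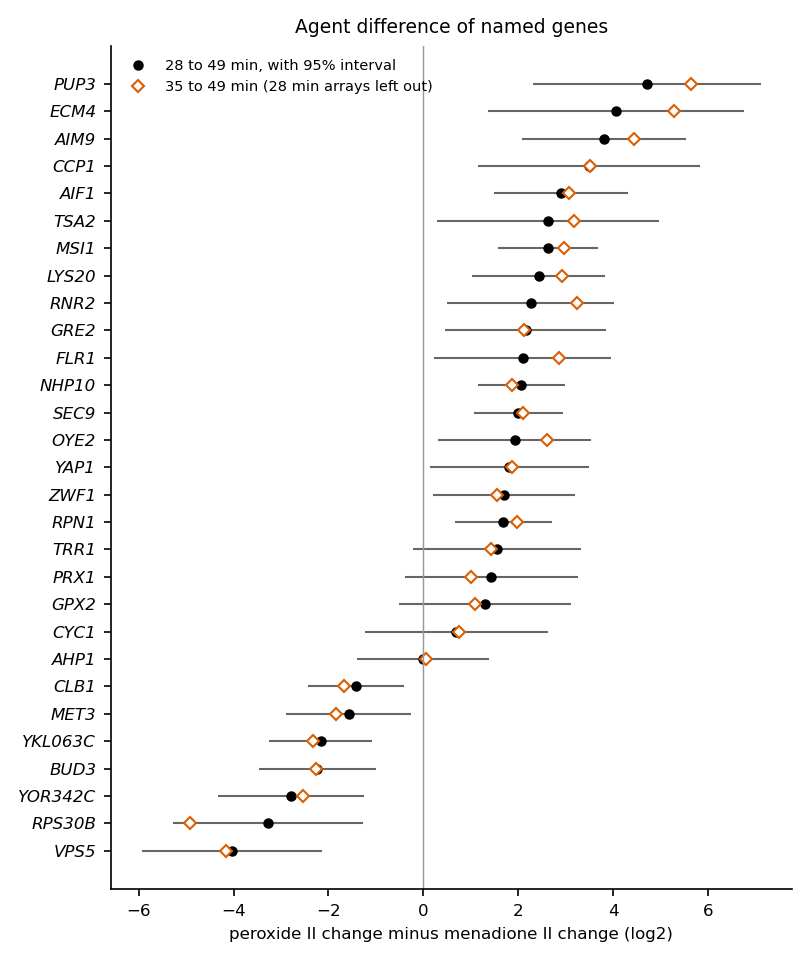
Agent difference (x axis, log2; positive where the change was more upward under peroxide) of 29 genes, ordered by size. Black points are the values over 28 to 49 min with their unadjusted 95% intervals, and open diamonds the values with the 28 min arrays of both courses left out. Most positive differences, PUP3, ECM4, TSA2, RNR2 and FLR1 among them, are larger without the 28 min arrays, and AHP1 lies at 0.

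With the 28 min arrays of both courses left out, a choice listed among the alternatives, the agent difference passed for 46 of 5410 genes (0.85%), 33 (0.61%) higher and 13 (0.24%) lower. In that comparison 698 genes (12.9%) changed under peroxide and 22 (0.407%) under menadione. The 33 included FLR1 (2.87, adjusted p = 0.045), ECM4 (5.27, adjusted p = 0.0222), LYS20 (2.91, adjusted p = 0.0406), RNR2 (3.23, adjusted p = 0.0476), RPN1 (1.97, adjusted p = 0.0227), PUP3 (5.63, adjusted p = 0.0195), MSI1 (2.97, adjusted p = 0.00793) and AIF1 (3.06, adjusted p = 0.0266). They also included RIB3, an enzyme of riboflavin synthesis, at 2.85, the pyruvate kinase gene CDC19 at 2.66, the glyoxylate cycle enzyme gene ICL1 at 3.92, and the prohibitin gene PHB2 at 3.25. The 13 included RPS30B (-4.93, adjusted p = 0.00567), RPL22B, RPL23B, the biogenesis factor EBP2, the fatty acid synthase gene FAS1 (-2.47, adjusted p = 0.0386), the actomyosin ring protein gene IQG1 (-2.63, adjusted p = 0.0195) and STE4, the beta subunit of the pheromone G protein (-2.66, adjusted p = 0.0476). Of the 69 oxidant defence genes measured without these arrays, 32 rose and 0 fell under peroxide, against 7.56% and 5.34% of all genes. Under menadione 6 of the 69 rose, against 0.259% of all genes. The agent difference passed for 2 of them, ECM4 and FLR1, both higher, against 0.61% of all genes. Dropping the 28 min peroxide array alone gave 81 genes, and dropping the 28 min menadione array alone gave 0. The 28 min peroxide array was scanned on another day than the 35, 42 and 49 min ones. Its time and scan day cannot be told apart.

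The first windows of both courses were compared as well, because they enter the agent difference with opposite sign and share its arrays. Peroxide and menadione differed at 0 to 21 min for 39 genes (0.71%), 19 higher (0.346%) and 20 lower (0.364%) under peroxide, and an unadjusted p under 0.05 was found for 6.48% higher and 7.68% lower. These calls did not hold in several other settings. With scan day of the peroxide arrays as a covariate, with only the 16 arrays or with matched time as a replicate block, 0 genes passed. With 1 scan day per course 1 passed. On uncentred values 5 were higher and 44 lower, with a median shift of -0.20 over all genes. PUP3, AIM9, RLP24, GRX8 and YAP5 were among those lower, and VPS5, EPT1 and TDH2 among those higher. For these 8 genes the agent difference carries a starting difference of the opposite sign. For TSA2, FLR1, GRE2, LYS20, MSI1 and AIF1 the starting differences were -0.41, 0.90, -0.87, -0.44, -0.65 and -0.11, none past the threshold. ECM4 and ICL1 had larger starting differences of -2.33 and -2.19, also not past it (adjusted p = 0.207 and 0.105). These enter their agent differences with opposite sign.

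Scan day was split unevenly. No menadione array shared its scan day with a peroxide array, which means that agent and scan day cannot be told apart. The peroxide arrays at 14, 21 and 28 min were scanned on another day than the other 5. A covariate for the scan day of the peroxide arrays adjusts between their 2 days and not between the courses. With it 0 genes passed for the agent difference, 126 for the peroxide change and 0 for the starting difference. With the 14, 21 and 28 min arrays of both courses left out, so that each course had 1 scan day, 17 genes passed for the agent difference, 370 for peroxide, 42 for menadione and 1 for the starting difference.

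The first courses of the study used 0.24 mM peroxide and 2 mM menadione and other arrays, so their values stand beside the others without a test. There the later window held 30 and 40 min and the first window 0, 14 and 20 min. The difference of changes, peroxide minus menadione, was positive for 28 of 35 general stress genes with a median of 0.56, for 19 of 24 heat shock chaperones with a median of 0.57, and for 6 of 7 siderophore uptake genes with a median of 0.96. It was positive for 43 of 69 oxidant defence genes (median 0.35), for 20 of 34 proteasome genes (median 0.12), for 17 of 54 ribosome biogenesis factors (median -0.19) and for 9 of 32 genes of the CLB2 cluster (median -0.42). TSA2, FLR1, TRR1 and DDR2 had first-course differences of 2.42, 2.40, 2.54 and 2.77, whereas ECM4, GPX2, RNR2 and RPN1 had -0.05, -0.04, -0.67 and -1.33. CYC1 had 2.17, CLB1 -1.29 and CLB2 -2.87. Of the 46 genes that passed without the 28 min arrays, 27 (58.7%) had the same sign in the first courses, against 50.7% of all genes with a value in both.

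**Figure D5:**
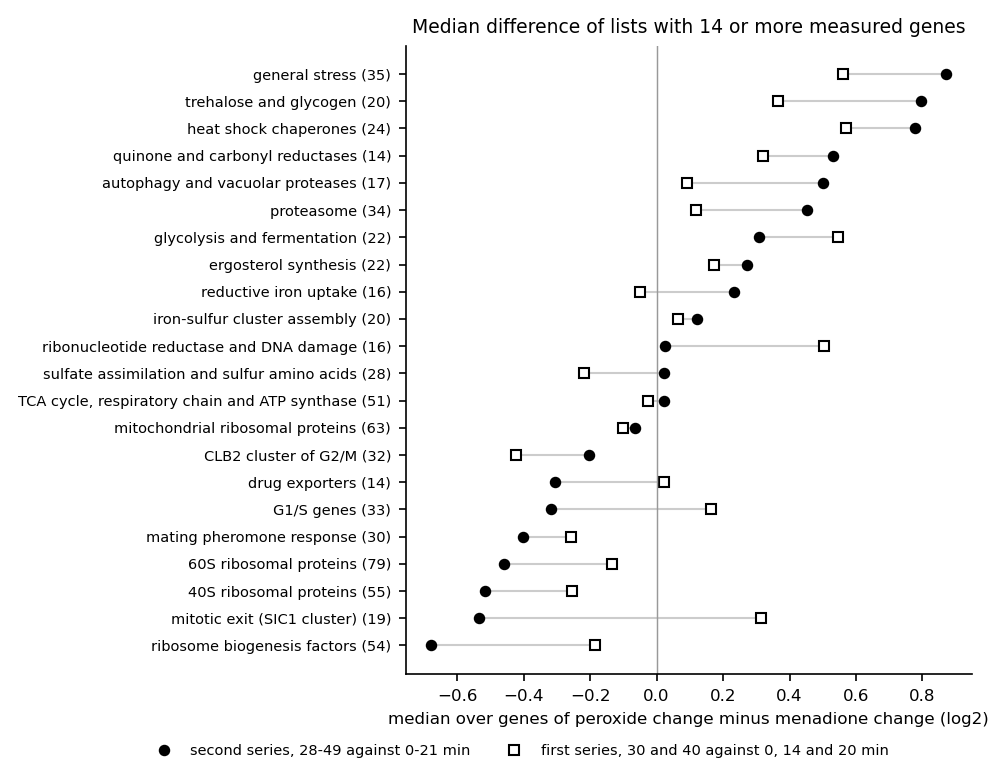
Median over genes of the peroxide change minus the menadione change (x axis, log2) for 22 lists with 14 or more measured genes (count in brackets, second courses), ordered by the second courses. Filled circles are the second courses, 28 to 49 against 0 to 21 min, and open squares the first courses, 30 and 40 against 0, 14 and 20 min. General stress, trehalose and glycogen, and heat shock lists lie above 0 in both, ribosome lists below 0 in both, and the mitotic exit and G1/S lists lie on opposite sides.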

How the data were processed

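The authors deposited 2-colour array values as series matrix tables; the table of the second courses holds 1 log value per spot and array, taken here as log2 ratios of the synchronised sample (Cy5, per the labels) over the asynchronous one (Cy3), a direction read from mating genes. Log base, scaling and filters used by the authors are not given in the sources used here, and no scanner files were used. Spots were named through the platform annotation and RefSeq names, spots of a gene were averaged, and each array was centred on its median. Genes with a value on 75% of the 33 arrays of the second courses and on 2 arrays of each of the 4 windows were kept. limma 3.58.1 in R 4.3.3 was fitted to all 33 arrays with 8 group means, and Benjamini-Hochberg adjustment ran over all genes, with a threshold of 0.05. Missing values were not imputed. The number of arrays limits the precision. Members, gene lists (37) and alternatives were chosen with earlier results of these data known. Genes were named by rule: up to 15 of each sign past the threshold or else the 5 with the smallest p, up to 3 per list with the largest difference, 51 fixed genes, and those that passed without the 28 min arrays, the last chosen after their values were seen; genes given only as called members of a list, such as AAD15 and NSR1, fall outside it. The pipeline was tested on simulated data with independent arrays, and that test does not cover trends in time, scan days or starting differences. Courses share time points but no culture, so matched times do not pair the arrays.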

Additional observations from a re-analysis of the deposited data

Results flagged for a closer look

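Among 287 groups of 4 arrays examined, over 37 genes shown by array and the gene lists, 16 had an array far from its other 3 (a gap to the nearest array above Dixon's 95% critical value), and chance gives about 1 in 20. In the peroxide course at 28 to 49 min, the 28 min array was low for TSA2 (1.50, others 5.18 to 5.87), FLR1 (1.54, others 5.55 to 5.99), OYE2 (1.10, others 3.42 to 3.76), CYC1 (1.47, others 3.55 to 3.69) and DDR2 (-0.97, others 3.64 to 3.98). The 35 min array was high for YOR342C (-1.77, others -4.57 to -4.25). In the first peroxide window the 21 min array was low for the medians of sulfate assimilation (-0.25, others 0.16 to 0.23) and heat shock chaperones (-0.11, others 0.50 to 0.59), and the 7 min array was high for ribosome biogenesis factors (-0.10, others -0.33 to -0.30).

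In the menadione course at 28 to 49 min, the 42 min array was high for NHP10 (-0.30, others -1.30 to -1.15) and for the median of sulfate assimilation (0.77, others 0.52 to 0.55), and the 49 min array for the median of mitochondrial ribosomal proteins (0.39, others -0.16 to -0.07). In its first window ECM4 was low at 7 min (-0.049, others 1.00 to 1.21), RPS30B low at 14 min (-2.30, others 0.03 to 0.27), AIF1 low at 0 min (-0.41, others 0.14 to 0.21) and YOR342C high at 14 min (1.17, others -0.42 to -0.21).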

How the results depend on the processing

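The count of 0 genes for the agent difference held with arrays uncentred or scaled to the same spread and with only the 16 arrays. It also held with scan day of the peroxide arrays as a covariate, without the 0 min arrays and without the filter. It held as well with a trended and robust prior and with matched time as a replicate block (441 at an unadjusted p under 0.05). It was 46 without the 28 min arrays, 17 with 1 scan day per course, 2 with array weights, and 1 over genes with a value on all 16 arrays. Leaving out 1 array in turn gave 0 to 81 genes for the agent difference, 69 to 693 for peroxide, 0 to 10 for menadione and 8 to 72 for the starting difference; the 81 and 693 are without the 28 min peroxide array, the 69 without the 42 min peroxide array (81 without the 49 min one), and the 8 and 72 without the 7 min array of menadione and of peroxide. The peroxide count was 216, and 698 without the 28 min arrays, 370 with 1 scan day per course, 353 with array weights, 126 with the scan day covariate, 41 with only the 16 arrays, and 42 without the peroxide arrays at 14 and 42 min, an alternative chosen after seeing the data. The menadione count of 0 was 22 without the 28 min arrays, 42 with 1 scan day per course, 6 over genes on all 16 arrays and 2 without the 0 min arrays. The starting difference of 39 genes was 117 with scaled arrays, 24 with array weights, 21 without the 14 and 42 min peroxide arrays, 1 with 1 scan day per course, and 0 with only the 16 arrays, with the scan day covariate and with matched time as a replicate block; the block fit cannot give a value for a single course. Except where the alternative itself leaves out arrays or genes, the cause was not tested.

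Over 140 named genes and all alternatives, 3874 of 3969 agent differences kept sign and side of the threshold, 53 passed it and 42 changed sign. With 1 scan day per course, AHP1 was 0.29, CLB5 -0.35, MET14 -0.022, MET16 -0.42 and SNQ2 -0.17; with array weights, AHP1 was 0.25, SNQ2 -0.17 and SWI5 -0.11; without the 28 min arrays, AHP1 was 0.062 and MET16 -0.74; without the 0 min arrays, ATG3 was 0.11 and GSH1 -0.24; with scaled arrays, SNQ2 was -0.15; without the 14 and 42 min peroxide arrays, ENB1 was -0.017 and SNQ2 -0.33. Leaving out 1 array in turn moved AHP1 between -0.35 and 0.41, ATG3 between -2.25 and 0.36, CLB5 between -0.20 and 0.93, MET16 between -0.68 and 0.86, MF(ALPHA)2 between -0.35 and 1.13, OYE3 between -0.34 and 1.40, SNQ2 between -0.12 and 0.34, SOD2 between -0.044 and 0.69, SRX1 between -1.43 and 0.24, and SWI5 between -0.39 and 0.72.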

Other observations

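Some genes outside the lists stood among those with the smallest p for the peroxide change and were named after their values were seen. OSI1 rose by 5.30 under peroxide (adjusted p = 0.000418) and changed by 1.94 under menadione. YMR027W rose by 4.46 (adjusted p = 1.41e-05), against a menadione change of 1.81. YNL134C rose by 3.31 under peroxide (adjusted p = 0.00131), and its menadione change of 2.47 had an adjusted p of 0.0959. The mating agglutinin gene AGA2 fell by 3.93 on the log2 scale under peroxide (adjusted p = 0.000191), and its menadione change was -2.66 (adjusted p = 0.0959).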
